A study of Homo sapiens with 32 samples.

Results

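Interferon signalling was followed through 47 genes in total and polysome-bound mRNA of MCF10A and MDA-MB-231 cells. The genes were taken by symbol from the 19815 protein-coding genes of the count tables, which list 60554 genes of every class. They comprised 6 receptor subunits and kinases, 6 transcription factors, 8 RNA sensors and 2′-5′-oligoadenylate synthetases, 19 antiviral effectors, 4 genes of the ISG15 system and 4 genes of antigen processing. IRF9, the DNA-binding subunit of the interferon-stimulated gene factor ISGF3, rose when hypoxia was combined with an mTOR inhibitor in both lines.

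Type I interferons bind the receptor chains IFNAR1 and IFNAR2, whose kinases JAK1 and TYK2 phosphorylate STAT2 and a second STAT protein. Together with IRF9 these form ISGF3, which binds interferon-stimulated response elements (ISRE) in front of antiviral genes such as the IFIT, OAS and ISG15 genes. Interferon γ acts through IFNGR1 and IFNGR2 on gamma-activated sequences (GAS), and IRF1 and IRF2 are known as an activator and an antagonist on related elements. Epithelial cells carry this pathway without being immune cells, and carcinoma cells can keep part of its target genes on without added interferon.

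MCF10A is a non-tumourigenic human breast epithelial line, and MDA-MB-231 was derived from a metastatic triple-negative breast carcinoma. Cells of each line were kept for 24 h in normoxia (N) or in 0.5% O2 (H), with 2.5 µM PP242, an inhibitor of mTORC1 and mTORC2, for 3 h in normoxia (NPP) or in hypoxia (HPP). Total mRNA (T) and mRNA from the polysomes of a sucrose gradient (P) were sequenced, with 2 biological replicates in each of 8 groups per line and 32 libraries in all. No interferon was added in any group, and each line stands for 1 established culture. The lines were tabulated separately and carry separate series of barcodes, so that line cannot be told apart from whatever else differed between the tables. In bulk RNA, fewer expressing cells and less RNA per cell cannot be told apart either.

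The libraries held 30302497 to 46032327 counts in MCF10A and 18340916 to 39536845 in MDA-MB-231. Levels are given in counts-per-million units (CPM) of the protein-coding total after TMM scaling within each line, for replicate 1 and replicate 2 in this order, and a called gene had an adjusted p under 0.05 in the quasi-likelihood test of edgeR over all tested genes of the line. Summed before TMM scaling, the 47 genes stood at 1743 to 3059 CPM in the libraries of MCF10A and 2190 to 3414 CPM in those of MDA-MB-231. Of the 47 genes, 46 passed the filter on low counts in MCF10A and 47 in MDA-MB-231. XAF1, an apoptosis-associated interferon target, was the gene not tested in MCF10A, where no library held more than 1 of its counts. Replicates of MCF10A varied more, with a common biological coefficient of variation of 0.325 against 0.150.

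The oxygen labels and the identity of the lines were checked before the results. CA9, a target of HIF1, ranged from 7.72 to 26.9 CPM in normoxia and from 522 to 1356 CPM in hypoxia in MCF10A, and from 0.0568 to 1.02 against 13.0 to 34.6 CPM in MDA-MB-231. Normoxic and hypoxic libraries did not overlap in either line. MCF10A expressed the basal keratins KRT5 (1190 to 3268 CPM) and KRT14 (458 to 4203 CPM), which reached at most 0.284 and 0.610 CPM in MDA-MB-231, whereas the epithelial markers CDH1, EPCAM and TP63 reached at most 0.361, 0.461 and 0.226 CPM in MCF10A. MDA-MB-231 held KRT18 at 332 to 575 CPM (60.4 to 628 in MCF10A), CDH1 at no more than 0.568 CPM and EPCAM at 9.86 to 19.1 CPM. The mesenchymal marker VIM stood at 3113 to 6082 CPM in MDA-MB-231 and 1691 to 9370 CPM in MCF10A, and ZEB1 at 43.6 to 88.2 and 4.69 to 32.6 CPM. CDH2 and SPARC, also mesenchymal markers, stood at 28.2 to 87.7 and 91.7 to 203 CPM in MCF10A and reached at most 1.53 and 0.796 CPM in MDA-MB-231. The summed epithelial markers set the lines apart, at 1815 to 7671 CPM in MCF10A and 345 to 595 CPM in MDA-MB-231, mostly through the keratins, and the mesenchymal markers did not set MDA-MB-231 apart from MCF10A as the mesenchymal line. CDH1 and EPCAM near 0 with VIM, CDH2 and SPARC present go in part against the description of MCF10A as epithelial. Of the immune cell markers, PTPRC reached at most 0.101 CPM in MCF10A and 1.14 CPM in MDA-MB-231, CD14 ranged from 1.76 to 11.9 and from 0.957 to 3.05 CPM, and CD3E had 0 counts in 16 of 16 MCF10A libraries.

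In MCF10A some libraries stood apart from their partner. In total mRNA of NPP, replicate 1 and replicate 2 held 20.6 and 3.94 CPM of PARP14, 39.8 and 8.75 CPM of EIF2AK2 and 144 and 397 CPM of IFITM2. In total mRNA of HPP the same genes stood at 14.1 and 4.90 CPM, at 34.0 and 10.9 CPM and at 118 and 227 CPM. Polysomal mRNA of N, the baseline of the comparisons with N in P and of part of the translation contrast, was split as well. There these genes stood at 12.6 and 17.3 CPM, at 29.5 and 53.9 CPM and at 508 and 233 CPM. Each called change of the 47 genes in HPP against N or H is therefore also given as it stood when 1 of the 4 libraries of its comparison was left out. For differences between lines only the counts of called genes were taken with a library left out.

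Short windows of the promoters show which of the elements named above lie in front of the genes on which the results turn. Promoters from RefSeq (GRCh38.p14, 250 bases before to 50 after the start) were matched for 38 of the 47 genes, and the windows below are 30 bases long and read in the direction of the gene. In IRF9 the window was chr14:24161189-24161218 (plus strand), in IRF1 chr5:132490878-132490907 (minus strand), in ISG15 chr1:1013374-1013403 (plus strand) and in IFIT3 chr10:89327865-89327894 (plus strand). Capitals mark CACGTG, which holds the hypoxia-element letters ACGTG on both strands, and the GAS letters TTCNNNGAA in IRF9, the GAS letters and the start of a reversed GCGTG in IRF1, and the ISRE letters GAAANNGAAA, reversed in IFIT3, in ISG15 and IFIT3. In ISG15 a further ISRE match, GAAACCGAAA, starts within the capitals and runs on in lower case.
IRF9: cagacCACGTGatTTCTGGGAAaaggccct
IRF1: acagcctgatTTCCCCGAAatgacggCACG
ISG15: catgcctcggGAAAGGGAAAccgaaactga
IFIT3: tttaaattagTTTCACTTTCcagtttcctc

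The promoter of IRF9 held none of the ISRE letters in this window. GAAANNGAAA, searched on both strands, was present in 22 of the 38 matched genes (57.89%) and in 3.574% of 35116 promoters of the same length. The GAS letters were present in 9 of 38 (23.68%) against 7.657%, ACGTG in 9 of 38 (23.68%) against 21.41%, and GCGTG in 14 of 38 (36.84%) against 36.54%. A match of letters is a description and not a binding site, and short motifs can overlap.

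Of the 46 genes tested in MCF10A, IRF9 had the largest log2 fold change under HPP in both fractions. In total mRNA of MCF10A it stood at 7.78 and 5.84 CPM in N, 14.0 and 16.4 in H, 13.2 and 15.8 in NPP and 48.8 and 49.5 in HPP. In polysomal mRNA the values were 12.1 and 6.27 CPM in N, 19.0 and 17.5 in H, 18.6 and 17.0 in NPP and 71.4 and 70.6 in HPP. In either fraction H and NPP overlapped each other, lay above N and lay below HPP. HPP was 7.22-fold N in T (log2 fold change 2.85 ± 0.31 SE, adjusted p = 0.000276) and 7.76-fold in P (2.96 ± 0.31, adjusted p = 0.00018). With each library left out in turn the log2 fold change was 2.65 to 3.07 in T and 2.55 to 3.57 in P, with adjusted p of at most 0.00959. By fold change IRF9 was number 252 in T and 261 in P of the 13124 genes tested.

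In MDA-MB-231 IRF9 started higher and rose less. Total mRNA held 16.9 and 15.3 CPM in N, 18.7 and 20.5 in H, 22.5 and 23.8 in NPP and 30.9 and 29.6 in HPP. Polysomal mRNA held 19.7 and 15.4 CPM in N, 23.6 and 17.1 in H, 22.0 and 26.4 in NPP and 36.7 and 31.7 in HPP. The 4 groups did not overlap in T and followed the order N, H, NPP, HPP, and in P the libraries of HPP lay above all others. HPP was 1.87-fold N in T (log2 fold change 0.91 ± 0.18 SE, adjusted p = 0.00521) and 1.95-fold in P (0.96 ± 0.18, adjusted p = 0.00222). The call in T was lost without replicate 2 of N (0.83, adjusted p = 0.0610), and that in P held without each library. In rank by fold change IRF9 was number 665 in T and 880 in P of 13510.

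IRF9 lies on chromosome 14 (GRCh38, GENCODE v44, chr14:24161234-24168043, plus strand). A readthrough gene shares its strand and a lncRNA overlaps it on the other strand, and the expected counts can split or merge such reads. The readthrough gene held 11 to 68 counts in MCF10A and 17 to 75 in MDA-MB-231, against 277 to 3133 and 269 to 1330 counts of IRF9. With its counts added to those of IRF9 the log2 fold changes in HPP were 2.66 in T and 2.85 in P of MCF10A, and 0.90 and 0.93 in MDA-MB-231, all 4 still called.

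**Figure D1:**
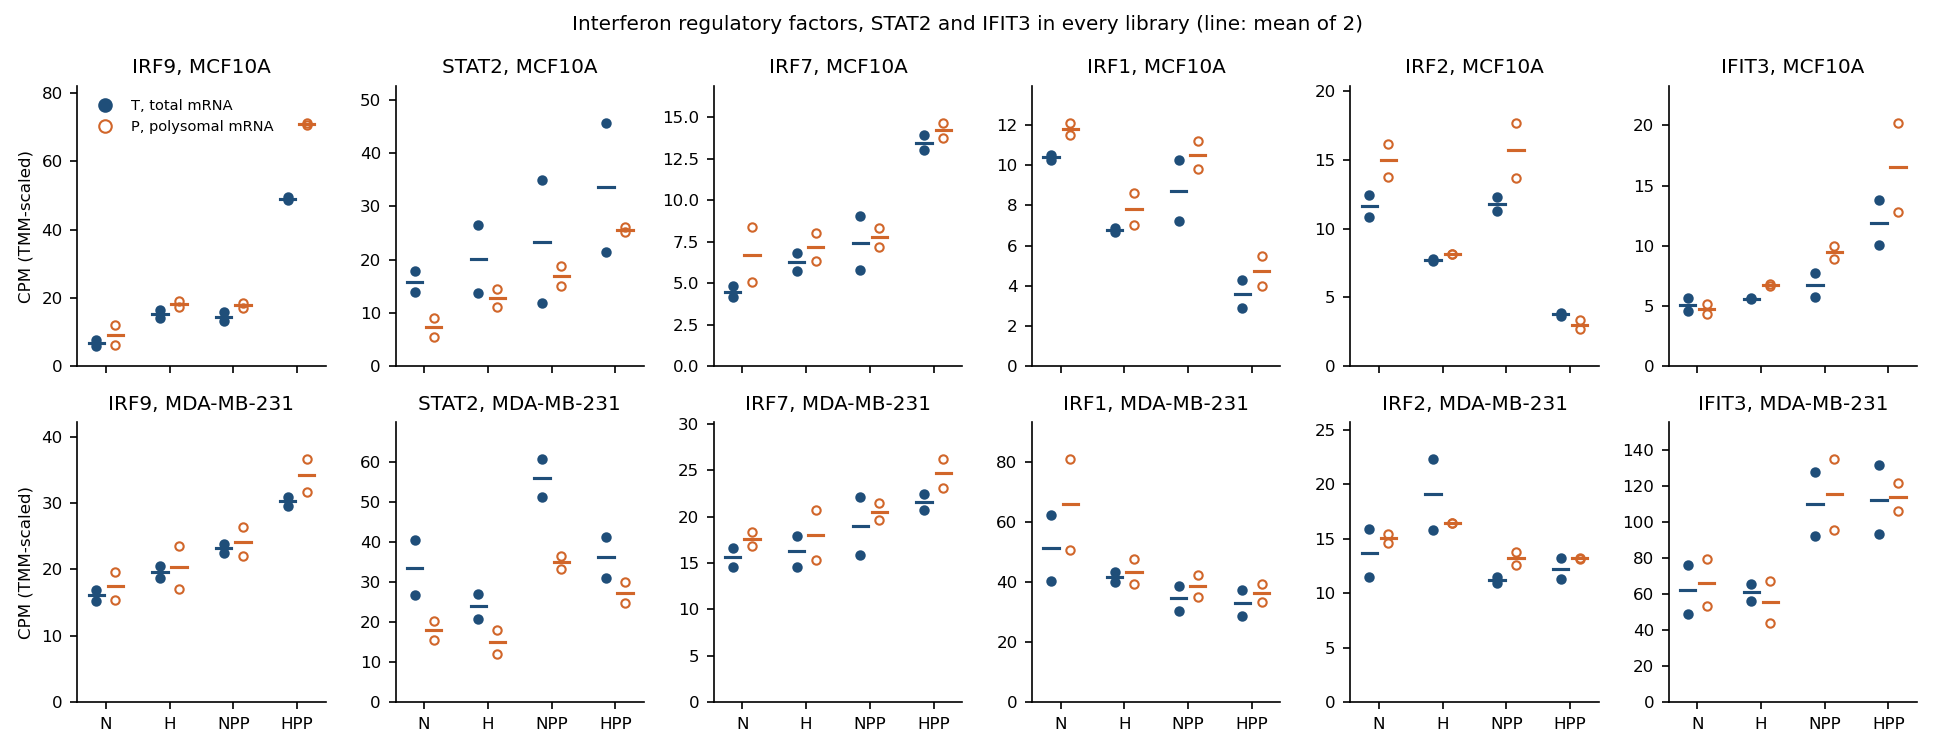
Levels (CPM, linear axes from 0) of IRF9, STAT2, IRF7, IRF1, IRF2 and IFIT3 in every library, by line, fraction (T, P) and treatment, with points for the 2 libraries of a group and a line at their mean. In HPP IRF9 lies at 48.8 to 71.4 CPM in MCF10A and at 29.6 to 36.7 CPM in MDA-MB-231, and IRF2 lies at 2.68 to 3.89 CPM in MCF10A, below its other groups.

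Among all 47 genes HPP called 3 up and 3 down in T of MCF10A, where 7.43% of all tested genes were called up and 7.47% down. In P it called 5 up and 5 down, against 10.2% up and 11.9% down of all genes. In MDA-MB-231 it called 2 up (background 6.31%) and 3 down (6.91%) in T, and 2 up (9.71%) and 6 down (9.73%) in P. The called shares of the 47 genes were near or below those of all genes. The median log2 fold change was 0.18 in T and 0.09 in P of MCF10A (all genes −0.01 and −0.04), and −0.12 and −0.14 in MDA-MB-231 (all genes −0.05 and 0.01). The calls of all genes fell as well when 1 library was left out, from 14.9% to between 4.26% and 9.54% in T and from 22.2% to between 7.56% and 16.5% in P of MCF10A, and from 13.2% to between 3.93% and 9.06% and from 19.4% to between 5.73% and 11.2% in MDA-MB-231. In T of MCF10A the 6 calls became 3 without replicate 1 or without replicate 2 of N. In P the 10 calls became 4 without replicate 1 of N, 5 without replicate 1 of HPP and 4 without replicate 2 of HPP. In MDA-MB-231 the 5 calls in T became 2 without replicate 2 of N or without either HPP library, and the 8 calls in P became 2 without replicate 1 of N, 1 without replicate 1 of HPP and 3 without replicate 2 of HPP.

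**Figure D2:**
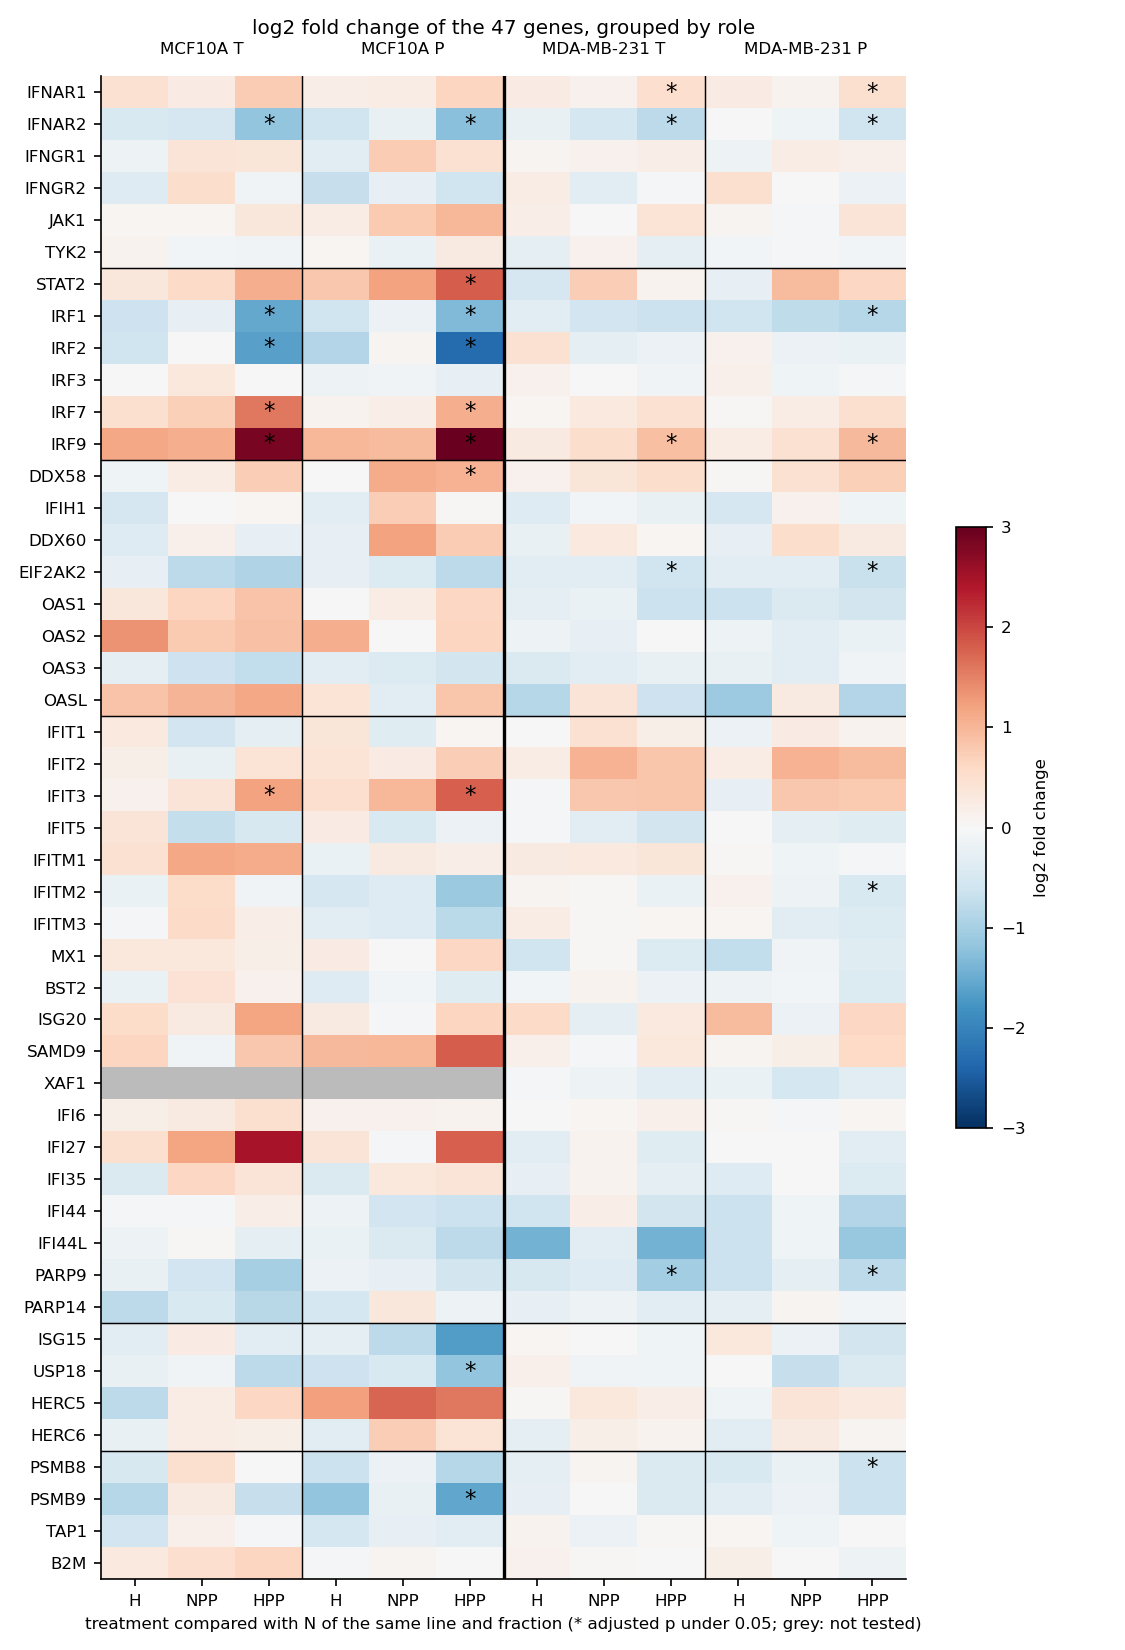
Log2 fold change (colour) of each of the 47 genes (rows, by role) against N of the same line and fraction, with a column for each treatment, fraction and line, a star for an adjusted p under 0.05 and grey for XAF1, which was not tested in MCF10A. Stars stand in HPP columns only, and the largest change among them is that of IRF9 in MCF10A (2.85 in T and 2.96 in P).

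Of the other interferon regulatory factors, IRF1 and IRF2 fell and IRF7 rose in HPP of MCF10A, and IRF3 was not called. IRF2 stood at 12.4 and 10.9 CPM in T of N, 7.80 and 7.65 in H, 12.3 and 11.3 in NPP and 3.89 and 3.66 in HPP. In P it stood at 16.1 and 13.8 CPM in N, 8.15 and 8.12 in H, 17.7 and 13.7 in NPP and 3.36 and 2.68 in HPP. HPP lay below every other group in both fractions, H lay between, and NPP overlapped N. The fall in HPP was −1.62 ± 0.24 in T (log2 fold change, SE, adjusted p = 0.00128) and −2.31 ± 0.24 in P (adjusted p = 0.000176), and it was called without each library in turn. In MDA-MB-231 IRF2 was not called, with 15.9 and 11.5 CPM in N and 13.2 and 11.3 in HPP of total mRNA.

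IRF1, a transcriptional activator that interferon γ induces, fell in MCF10A from 10.3 and 10.5 CPM in N to 2.90 and 4.30 in HPP of total mRNA. In P it went from 12.1 and 11.5 CPM to 4.00 and 5.46. The groups did not overlap, and the changes were −1.53 ± 0.29 in T (adjusted p = 0.00475) and −1.32 ± 0.28 in P (adjusted p = 0.00720). The call in T was lost without replicate 1 of HPP (adjusted p = 0.0672), and that in P without replicate 1 of N (0.0659) or of HPP (0.0528). In P of MDA-MB-231 IRF1 went from 81.1 and 50.8 CPM to 39.4 and 33.6 (−0.85 ± 0.24, adjusted p = 0.0242). This call remained only without replicate 2 of N (adjusted p = 0.0164), and without replicate 1 of N the change was −0.41 (adjusted p = 0.377). An antisense gene overlaps IRF1, and the libraries are not stated to keep strand.

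IRF7, the factor that amplifies type I interferon production, rose in MCF10A from 4.15 and 4.83 CPM in N to 13.9 and 13.0 in HPP of total mRNA, a change of 1.59 ± 0.31 (adjusted p = 0.00581). In P it rose from 8.38 and 5.07 CPM to 14.7 and 13.7 (1.08 ± 0.30, adjusted p = 0.0255). The groups did not overlap in either fraction. Without replicate 1 or replicate 2 of N the adjusted p in T became 0.0695 and 0.0503, and the call in P remained only without replicate 1 of N (0.0283; up to 0.146 otherwise). In MDA-MB-231 IRF7 stood at 14.6 and 16.7 CPM in N and 20.7 and 22.4 in HPP of total mRNA and was not called, nor was IRF3, the constitutive partner of IRF7, in any comparison of a treatment with N.

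STAT2, the ISGF3 subunit that carries the transactivation domain, was called in P of MCF10A, where it stood at 5.52 and 9.06 CPM in N, 11.2 and 14.5 in H, 15.1 and 18.9 in NPP and 26.0 and 25.1 in HPP. The change in HPP was 1.81 ± 0.53 (adjusted p = 0.0300), and the call was lost whichever of the 4 libraries was left out (adjusted p 0.0558 to 0.154). In T the 2 libraries of HPP differed widely, with 45.7 and 21.4 CPM against 17.8 and 13.9 in N. HPP lay above N without overlap there, and STAT2 was not called. In MDA-MB-231 it was highest in NPP in both fractions, with 60.7 and 51.2 CPM in T against 40.4 and 26.7 in N, and 33.3 and 36.5 CPM in P against 20.3 and 15.6. Neither difference was called (adjusted p = 0.251 in T and 0.0600 in P). With a block that compares libraries of the same replicate number, the difference in P was called. With such a block within each fraction it was not.

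Of the 6 receptor and kinase genes, IFNAR2, the high-affinity chain of the type I receptor, fell in HPP in both lines. In MCF10A it went from 17.3 and 16.8 CPM to 6.52 and 8.46 in T (−1.18 ± 0.26, adjusted p = 0.0112) and from 15.5 and 12.6 to 7.02 and 4.83 in P (−1.25 ± 0.26, adjusted p = 0.00656). In MDA-MB-231 it went from 11.8 and 10.1 CPM to 6.34 and 6.35 in T (−0.79 ± 0.19, adjusted p = 0.0132) and from 9.49 and 6.81 to 5.59 and 5.10 in P (−0.61 ± 0.19, adjusted p = 0.0354). No HPP library reached the lowest N library of its line and fraction. In T of MCF10A the call remained only without replicate 2 of HPP (adjusted p = 0.0417, otherwise up to 0.108), and in P it was lost without replicate 1 of N (0.0695) or replicate 2 of HPP (0.0768). In MDA-MB-231 it remained only without replicate 2 of N in T (0.0419, otherwise up to 0.132) and in P (0.0236, otherwise up to 0.436, with a change of −0.28 without replicate 1 of N). A readthrough gene joins IFNAR2 to IL10RB, and the counts of IFNAR2 are uncertain to that extent.

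IFNAR1, the other chain of that receptor, rose in MDA-MB-231 from 45.5 and 43.9 CPM in N to 64.3 and 61.7 in HPP of total mRNA (0.49 ± 0.13, adjusted p = 0.0235), and from 41.3 and 44.8 to 59.8 and 60.5 in P (0.48 ± 0.13, adjusted p = 0.0195). The groups did not overlap. The call was lost whichever library was left out, with adjusted p of 0.0633 to 0.149 in T and 0.0570 to 0.109 in P. In T of MCF10A IFNAR1 stood at 45.7 and 42.1 CPM in N and at 92.9 and 55.1 in HPP and was not called. IFNGR1, IFNGR2, JAK1 and TYK2 were not called against N in either line.

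Among the 8 sensors and synthetases, DDX58, which encodes the RNA sensor RIG-I, was called in P of MCF10A. It stood at 3.42 and 4.09 CPM in N, 3.53 and 4.05 in H, 7.21 and 8.98 in NPP and 7.30 and 8.21 in HPP. N and H overlapped, NPP and HPP overlapped, and the latter pair lay above the former. The change in HPP was 1.04 ± 0.27 (adjusted p = 0.0181), lost without replicate 1 of N (0.0963) or replicate 2 of HPP (0.106). The change in NPP was 1.11 ± 0.27 and not called (adjusted p = 0.0833). With a block that compares libraries of the same replicate number within each fraction, the change in NPP was called. EIF2AK2, which encodes the double-stranded RNA kinase PKR, fell in HPP of MDA-MB-231 from 83.8 and 91.6 CPM to 60.3 and 55.6 in T (−0.60 ± 0.13, adjusted p = 0.0106) and from 73.9 and 91.3 to 50.2 and 54.1 in P (−0.66 ± 0.13, adjusted p = 0.00392). The groups did not overlap. The call in T remained only without replicate 1 of N (0.0322, otherwise up to 0.134), and that in P was lost without replicate 1 of HPP (0.0608). OAS1, OAS2, OAS3 and OASL, the synthetase genes and a relative without that activity, were not called in HPP in either line.

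Of the 19 antiviral effectors, IFIT3 was the one called up in HPP. IFIT3, a partner of IFIT1 in binding foreign RNA, went in MCF10A from 5.69 and 4.55 CPM to 10.0 and 13.8 in T (1.22 ± 0.29, adjusted p = 0.0166) and from 4.37 and 5.13 to 12.8 and 20.2 in P (1.80 ± 0.30, adjusted p = 0.00192). The groups did not overlap. The call in T remained only without replicate 1 of HPP (0.0206, otherwise up to 0.160), and that in P was kept without each library. In MDA-MB-231 IFIT3 was far more abundant, with 76.6 and 48.9 CPM in N, 65.8 and 56.4 in H, 128 and 92.3 in NPP and 132 and 93.4 in HPP of total mRNA, and it was not called in HPP against N (adjusted p = 0.0617 in T and 0.0636 in P). Replicate 1 was the higher in every group of this line. With a replicate block, which compares libraries of the same number, IFIT3 was called in HPP of MDA-MB-231 in T (0.85, adjusted p = 0.000977) and P (0.81, adjusted p = 0.00084). IFIT1 and IFIT2 were not called. The spans of all 3 genes, introns included, lie inside that of LIPA on the other strand. Without strand, reads could be confused only where exons overlap, and overlap of exons was not examined.

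PARP9, an ADP-ribosyltransferase-family protein that acts with interferon signalling, fell in HPP of MDA-MB-231 from 6.92 and 6.14 CPM to 3.02 and 3.29 in T (−1.05 ± 0.19, adjusted p = 0.00292) and from 5.36 and 5.36 to 3.01 and 3.24 in P (−0.78 ± 0.19, adjusted p = 0.0106). The call in T held without each library, and that in P remained only without replicate 2 of HPP (0.0499, otherwise up to 0.0895). IFITM2, a membrane protein that blocks viral entry, went from 71.8 and 65.0 CPM in N to 48.8 and 51.3 in P of MDA-MB-231 (−0.45 ± 0.14, adjusted p = 0.0362). Its call was lost whichever library was left out (adjusted p 0.0573 to 0.258), and reads of the near-identical IFITM genes may be shared among them. The groups of PARP9 and IFITM2 did not overlap. IFI27 had a log2 fold change of 2.47 in T of MCF10A, from 0.470 and 0.253 CPM to 0.958 and 3.06, and was not called.

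In the ISG15 system USP18, the protease that removes ISG15 and also dampens IFNAR2, was called down in P of MCF10A, from 10.4 and 7.74 CPM to 3.83 and 4.08 (−1.19 ± 0.38, adjusted p = 0.0437). The groups did not overlap, but the call was lost whichever library was left out (0.0576 to 0.280). ISG15, HERC5 and HERC6 were not called in HPP in either line. In antigen processing, PSMB9, an immunoproteasome subunit, went in P of MCF10A from 17.3 and 11.8 CPM to 5.02 and 4.83 (−1.56 ± 0.45, adjusted p = 0.0297), a call that remained only without replicate 2 of N (0.0400, otherwise up to 0.208). PSMB8, a second such subunit, went in P of MDA-MB-231 from 143 and 93.7 CPM to 76.4 and 75.8 (−0.63 ± 0.20, adjusted p = 0.0388). This call, too, remained only without replicate 2 of N (0.0149), and without replicate 1 of N the change was −0.23 (adjusted p = 0.531). PSMB8, PSMB9 and TAP1 overlap on opposite strands. TAP1 and B2M were not called.

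Cell-type markers moved with the combined treatment as well. In HPP of MCF10A KRT14 rose by 2.37 on the log2 scale in T (adjusted p = 0.00565) and by 2.28 in P (adjusted p = 0.00525), and VIM rose by 1.73 in T (adjusted p = 0.0325). In P of MCF10A VIM was not called (−0.38, adjusted p = 0.605), and the summed mesenchymal markers, mostly VIM, stood at 3757 and 2583 CPM in N and 2686 and 2332 in HPP, against 2135 and 2486 and 4762 and 9563 in T. KRT5, KRT18, EPCAM, CDH2, SPARC and ZEB1 were not called in either fraction of MCF10A. In HPP of MDA-MB-231 VIM rose by 0.75 in T (adjusted p = 0.00574) and was not called in P (0.06), and in P EPCAM fell by 0.57 (adjusted p = 0.0368) and KRT18 by 0.63 (adjusted p = 0.0153). CDH1, KRT14, CDH2, SPARC and ZEB1 were not called there in either fraction. Their part in the changes of the interferon genes was not tested.

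In the fit of filtered genes without a replicate block edgeR called none of the 47 genes under the single treatments. Of all tested genes, H called 1.54% in T and 1.49% in P of MCF10A, against 1.27% and 2.29% in T and P of MDA-MB-231. NPP called 0.648% and 0.823% of all genes of MCF10A, against 0.555% and 1.95% of those of MDA-MB-231. In MCF10A an unadjusted p under 0.05 was found up and down for 1 and 2 genes under H in T (all genes 7.06% and 3.8%), 1 and 3 in P (6.88% and 5.59%), 2 and 0 under NPP in T (4.77% and 4.77%), and 8 and 0 in P (6.54% and 6.81%). In MDA-MB-231 the same counts were 1 and 4 under H in T (6.41% and 6.26%), 0 and 6 in P (10% and 7.2%), 3 and 3 under NPP in T (5.06% and 5.2%), and 3 and 3 in P (6.99% and 6.61%). With no filter beyond 1 read edgeR called 3 genes under NPP in T (1.68% of all genes), 2 under H in P (4.27%) and 4 under NPP in P (2.96%) of MDA-MB-231, and with 1 library left out it called up to 1 under H in P of that line. DESeq2 called 1 gene under H (3.83% of all genes) and 1 under NPP (2.73%) in T of MCF10A and 2 (4.24%) and 2 (5.07%) in P. In MDA-MB-231 it called 0 (2.61%) and 0 (1.86%) in T, and 1 (4.83%) and 2 (3.92%) in P. With the replicate number as a block edgeR called none in MCF10A, and in MDA-MB-231 2 genes under NPP in T (1.26% of all genes), 3 under H in P (4.52%) and 4 under NPP in P (3.34%). These were IFIT2 and IFIT3 in T, IRF1, OASL and MX1 under H in P, and IRF1, IFIT2, IFIT3 and STAT2 under NPP in P. With a block within each fraction the calls in MCF10A were IRF9 under H in T (adjusted p = 0.0427, 3.34% of all genes), IRF2 under H in P (adjusted p = 0.0398, 4.05%) and IFNGR1, DDX58 and STAT2 under NPP in P (adjusted p = 0.0449, 0.0184 and 0.0338, 5.07%), and in MDA-MB-231 STAT2 dropped out of those just named.

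IRF9 had the smallest p of the 47 genes in T of MCF10A under each single treatment, with log2 fold changes of 1.16 ± 0.30 in H (adjusted p = 0.0999) and 1.09 ± 0.30 in NPP (adjusted p = 0.175). In P the changes of IRF9 were 0.99 (adjusted p = 0.149) and 0.96 (adjusted p = 0.157). IRF2 changed by −0.88 in P under H (adjusted p = 0.104). In MDA-MB-231 IRF9 changed by 0.28 in H and 0.52 in NPP in T, and by 0.21 and 0.47 in P, none called. MX1, a dynamin-like GTPase that restricts viruses, was nearest to a call under H in MDA-MB-231, with 5.40 and 5.13 CPM in N and 3.51 and 2.78 in H in P (−0.75 ± 0.19, adjusted p = 0.0594).

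HPP was also compared with H, which shows what PP242 changed in hypoxic cells. The comparison shares its HPP libraries with the comparison against N. In T of MCF10A 1 of the 47 genes was called up (background 1.33%) and 1 down (2.42%), and in P 4 up (2.63%) and 1 down (3.87%). IRF9 rose by 1.69 ± 0.30 in T (adjusted p = 0.00973) and 1.96 ± 0.30 in P (adjusted p = 0.00466), and IRF2 changed by −1.03 ± 0.24 (adjusted p = 0.0335) and −1.43 ± 0.24 (adjusted p = 0.00678). IFIT3 (1.29), DDX58 (1.03) and IFNGR1 (0.77), a chain of the interferon γ receptor, were the others called up in P, with adjusted p of 0.0244, 0.0447 and 0.0460. IFNGR1 stood at 48.2 and 42.8 CPM in H and 76.0 and 79.4 in HPP, without overlap. Both calls in T were lost whichever library was left out, with adjusted p of 0.0575 to 0.125 for IRF9 and 0.145 to 0.194 for IRF2. In P the call of IRF9 was lost without replicate 1 of H (0.0502), that of IRF2 without replicate 2 of HPP (0.0841), that of IFIT3 remained only without replicate 1 of HPP (0.0275, otherwise up to 0.228), and those of DDX58 and IFNGR1 were lost without each library (0.0949 to 0.255 and 0.113 to 0.229). The 5 calls in P became 1 without replicate 1 of H or replicate 2 of HPP, 2 without replicate 2 of H and 3 without replicate 1 of HPP.

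In T of MDA-MB-231 none of the 47 genes was called in HPP against H (background 1.7% up and 2.08% down), with 3 up and 4 down at an unadjusted p under 0.05 (all genes 8.44% and 10.1%) and 3 called by DESeq2 (all genes 7.18%). In P 3 were called up (4.86%) and 1 down (6.62%). These were IFIT3 (1.03, adjusted p = 0.0295), STAT2 (0.85, adjusted p = 0.0355) and IRF9 (0.75, adjusted p = 0.0140), and IFITM2 (−0.58, adjusted p = 0.0156). IFIT3 stood at 67.7 and 44.4 CPM in H and 122 and 106.1 in HPP, STAT2 at 12.2 and 18.1 and at 24.8 and 29.98, and IFITM2 at 77.7 and 72.3 and at 48.8 and 51.3, with no overlap. The calls of IFIT3 and STAT2 remained only without replicate 1 (0.0385) and replicate 2 of H (0.0432) respectively, that of IRF9 was lost without replicate 2 of H (0.148) or replicate 1 of HPP (0.142), and that of IFITM2 was lost without each library (0.0513 to 0.145). The 4 calls became 0 without replicate 1 of HPP and 1 without replicate 2 of H or of HPP.

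Whether the combined treatment went beyond the sum of its parts was tested by the contrast of HPP minus H minus NPP plus N on the log2 scale, added after the values were seen. No member was called, and of all genes 0% was called in T and 0% in P of MCF10A, and 0.0074% and 0.0074% in MDA-MB-231. Without adjustment 1 of the 47 genes in T and 2 in P of MCF10A had a p under 0.05 (all genes 1.75% and 2.71%), against 0 and 1 for MDA-MB-231 (0.984% and 4.17%), and DESeq2 was not run for this contrast. These were IRF2 in both fractions and IRF9 in P of MCF10A, and IFITM2 in P of MDA-MB-231. The contrast for IRF9 was 0.60 ± 0.41 in T and 1.00 ± 0.41 in P of MCF10A, against 0.10 ± 0.25 and 0.28 ± 0.25 in MDA-MB-231. For IRF2 it was −1.05 ± 0.33 in T and −1.50 ± 0.33 in P of MCF10A (adjusted p = 1.00 and 0.976), and for IFITM2 it was −0.42 ± 0.20.

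Translation efficiency (Te) was taken as the log2 fold change in P minus that in T and tested in the same fit as a difference of both changes. The titles give the T and P libraries of a replicate the same number, but this fit treated them as independent libraries. None of the 47 genes was called. The background was 0% under H, 0% under NPP and 0% under HPP in MCF10A, against 0.0148%, 0.34% and 0.696% in MDA-MB-231. DESeq2 called none either, and 1 gene was under 0.05 without adjustment, DDX58 under NPP in MCF10A (0.89 ± 0.38), where 2.26% of all genes were. For IRF9 the Te change under HPP was 0.10 in MCF10A (95% interval −0.80 to 1.01) and 0.06 in MDA-MB-231 (−0.48 to 0.59). These intervals allow a Te change of up to about 1 log2 unit in MCF10A. For IRF2 the Te change in MCF10A was −0.68 (95% interval −1.40 to 0.04). With the shared number as a block none of the 47 genes was called, and the Te change of IRF9 under HPP was 0.16 in MCF10A (95% interval −0.72 to 1.05) and 0.06 in MDA-MB-231 (−0.45 to 0.56).

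**Figure D3:**
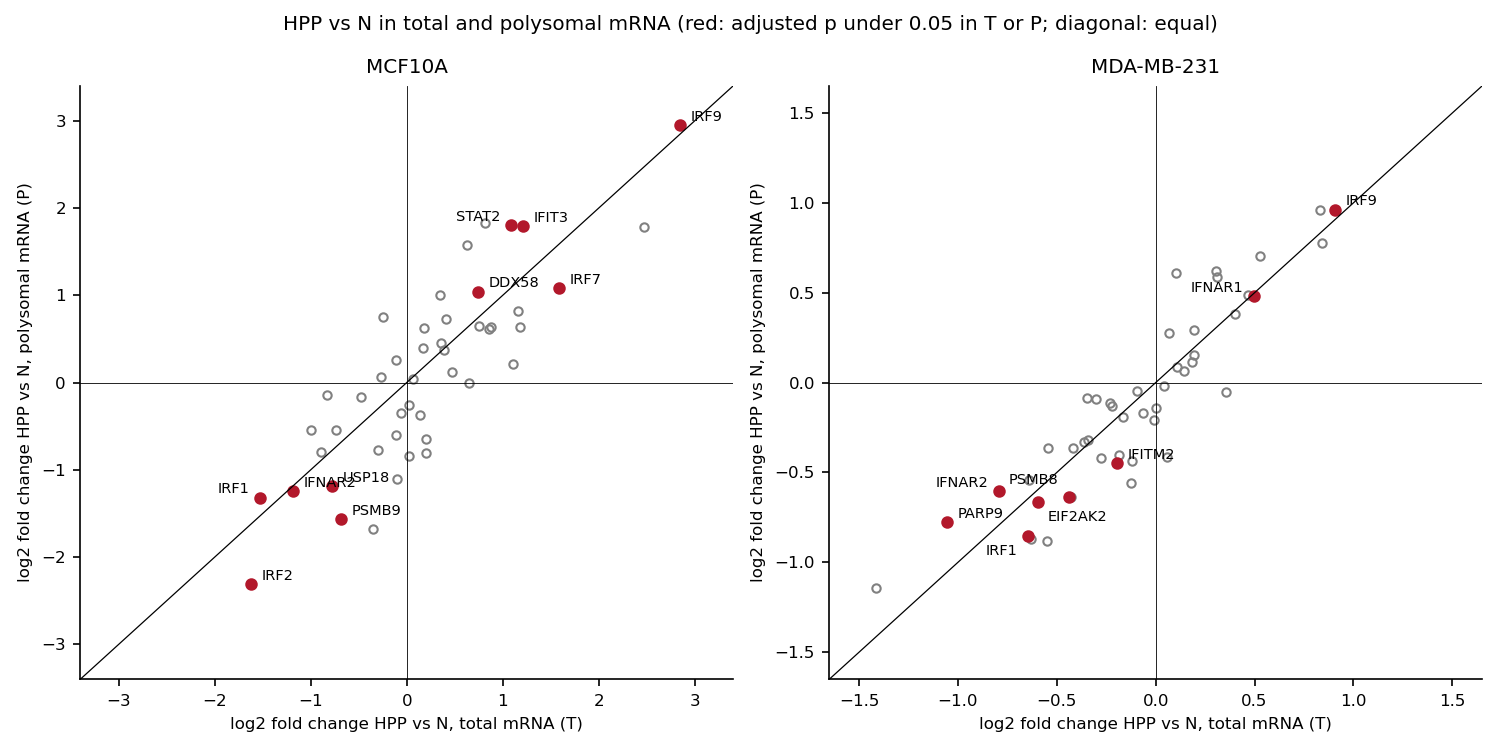
Log2 fold change of HPP against N in polysomal mRNA (vertical axis) and in total mRNA (horizontal axis) for the genes tested, 46 for MCF10A and 47 for MDA-MB-231, with a panel for each line, red for genes called in T or P and a diagonal where both are equal. The panels have different axis ranges. IRF9 lies near the diagonal in MCF10A (2.85 in T, 2.96 in P) and in MDA-MB-231 (0.91 and 0.96).

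Before any treatment the lines differed in the level of many of these genes. The tests come from the joint fit of 32 libraries, whereas the levels were scaled within each line and compare only roughly across them. In T of N 21 of the 47 genes were higher in MDA-MB-231 (background 20.3%) and 6 lower (20.5%), and in P 21 were higher (22.7%) and 7 lower (22.6%). Both counts of higher genes include XAF1, which failed the filter in MCF10A and entered the joint fit through its counts in MDA-MB-231. Its call is therefore no separate evidence of a difference. By role, 1 of 6 receptors and kinases was higher and 3 lower in T, 3 of 6 transcription factors, 4 of 8 sensors and 1 of 4 genes of antigen processing were higher and none lower, 9 of 19 effectors were higher and 2 lower, and 3 of 4 genes of the ISG15 system were higher and 1 lower. The 9 effectors include XAF1. Per kilobase of transcript, BST2 (tetherin, which holds budding virus at the membrane) stood at 3.47 and 2.48 CPM in T of MCF10A and 106.5 and 106.5 in MDA-MB-231, ISG15, the ubiquitin-like modifier, at 13.3 and 13.4 against 95.4 and 80.0, and HERC5, its ligase, at 0.0446 and 0.0720 against 12.6 and 11.2. None of these values overlapped. Among the genes called higher, the log2 differences in T were 7.16 for HERC5, 5.92 for OAS2, 4.84 for IFIT2, 4.70 for BST2, 3.16 for IFIT3, 2.97 for DDX58 and 2.25 for ISG15, in favour of MDA-MB-231. HERC5 and OAS2 reached at most 0.253 and 0.190 CPM in T of N in MCF10A, so the size of their differences is uncertain. HERC5, OAS2, IFIT2, IFIT3 and DDX58 were also higher in replicate 1 in every group of MDA-MB-231. In T of N, IFIT2 stood there at 33.1 and 14.8 CPM.

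Lower in MDA-MB-231 were IFI44L (3.79 and 2.73 against 0.240 and 0.234 CPM per kilobase in T, log2 difference −4.24), USP18 (4.16 and 5.31 against 0.714 and 1.04, −2.91), IFITM2 (−2.40), IFNGR2 (−1.79), IFNAR2 (−1.09) and IFNGR1 (−0.59). XAF1 had 0 counts in all 4 libraries of N in MCF10A and, with all 32 libraries scaled together as in the joint fit, a mean of 2.46 CPM in T and 1.98 in P of MDA-MB-231. Relative to a floor of 3 counts over the MCF10A group, these means were 59.7-fold in T and 47.1-fold in P. The ratios are descriptive and leave out the error of the means. IRF9 was higher in MDA-MB-231 by 0.78 in T (adjusted p = 0.0139) and 0.63 in P (adjusted p = 0.0386), and IRF1 by 1.85 in T (adjusted p = 2.8e-05). In the order of the 47 genes per kilobase in T, B2M was number 1 and IFITM3 number 2 in both lines, and IRF9 was number 20 in MCF10A (4.79 and 3.59 CPM per kilobase) and 23 in MDA-MB-231 (10.4 and 9.40). Line cannot be told apart here from the separate tables and barcode series.

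**Figure D4:**
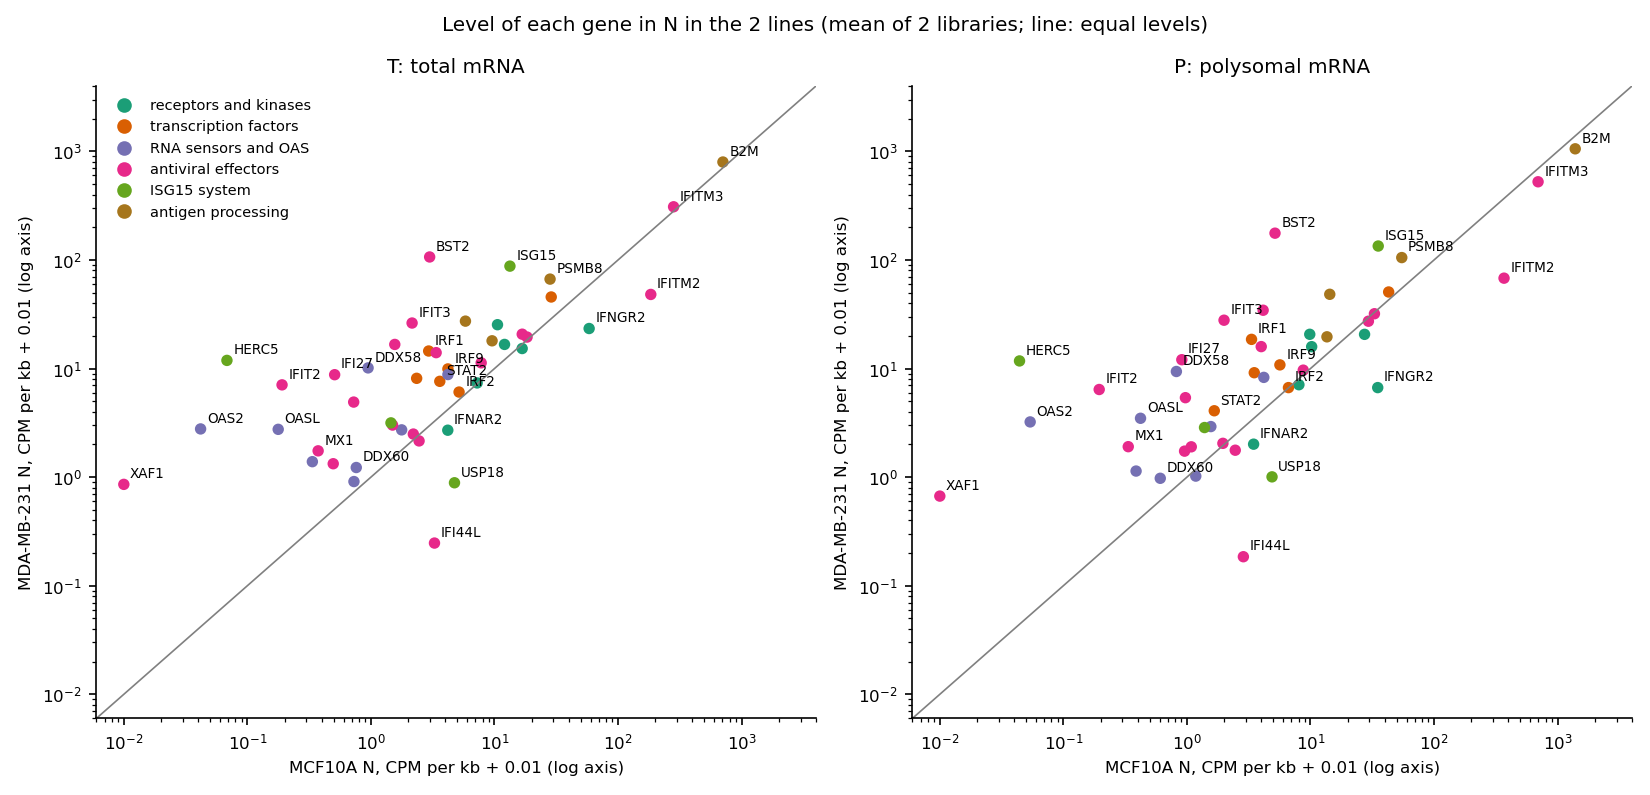
Level of each of the 47 genes in N (CPM per kilobase of transcript plus 0.01, logarithmic axes, mean of 2 libraries) in MDA-MB-231 (vertical) against MCF10A (horizontal), for T and P, coloured by role, with a line at equal levels. HERC5, OAS2, IFIT2 and BST2 lie far above the line and IFI44L and USP18 below it.

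The response to HPP itself was compared between lines in a joint fit of the 32 libraries. In T 1 of the 47 genes had a higher change in MDA-MB-231 (background 2.04%) and 1 a lower one (1.27%), and the counts in P were 1 (2.16%) and 1 (1.44%). The change of IRF9 was lower in MDA-MB-231 by 1.86 ± 0.34 on the log2 scale in T (adjusted p = 0.00407) and by 2.03 ± 0.34 in P (adjusted p = 0.00170). The change of IRF2, which fell in MCF10A, was higher in MDA-MB-231 by 1.55 ± 0.29 in T (adjusted p = 0.00424) and by 2.10 ± 0.29 in P (adjusted p = 0.000323). For IFIT3 the difference between lines was −0.30 ± 0.45 in T and −1.05 ± 0.45 in P (adjusted p = 0.857 and 0.230), for STAT2 −0.87 ± 0.58 and −1.21 ± 0.58 (0.538 and 0.302), and for IFNAR2 0.47 ± 0.31 and 0.62 ± 0.31 (0.525 and 0.321).

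The replicates of MDA-MB-231 differed in a group of the target genes. Replicate 1 lay above replicate 2 in 8 of 8 groups for 11 of the 47 genes, namely OASL, IFIT2, OAS1, IFIT1, ISG20, DDX60, IFIT3, DDX58, IRF1, OAS2 and HERC5, and for 0 genes it lay below in 8 of 8. Of all 13510 genes 2.97% were higher in replicate 1 in 8 groups and 2.73% in replicate 2. OASL, an OAS family member without synthetase activity, stood in T at 14.3 and 3.64 CPM in N, 7.14 and 2.73 in H, 18.9 and 4.90 in NPP and 8.18 and 3.59 in HPP. In P it stood at 18.8 and 3.94 CPM in N, 8.04 and 2.52 in H, 21.9 and 5.20 in NPP and 8.69 and 3.67 in HPP. The mean difference between replicates was 1.70 log2 units for OASL (1.18 to 2.23), 1.05 for IFIT2, 1.01 for OAS1 and 0.83 for IFIT1. In MCF10A 1 of 46 genes, IRF2, was higher in replicate 1 in 8 groups, against 1.35% of all genes. The titles give T and P of a replicate the same number, so the 8 groups are not independent, and no test was made.

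**Figure D5:**
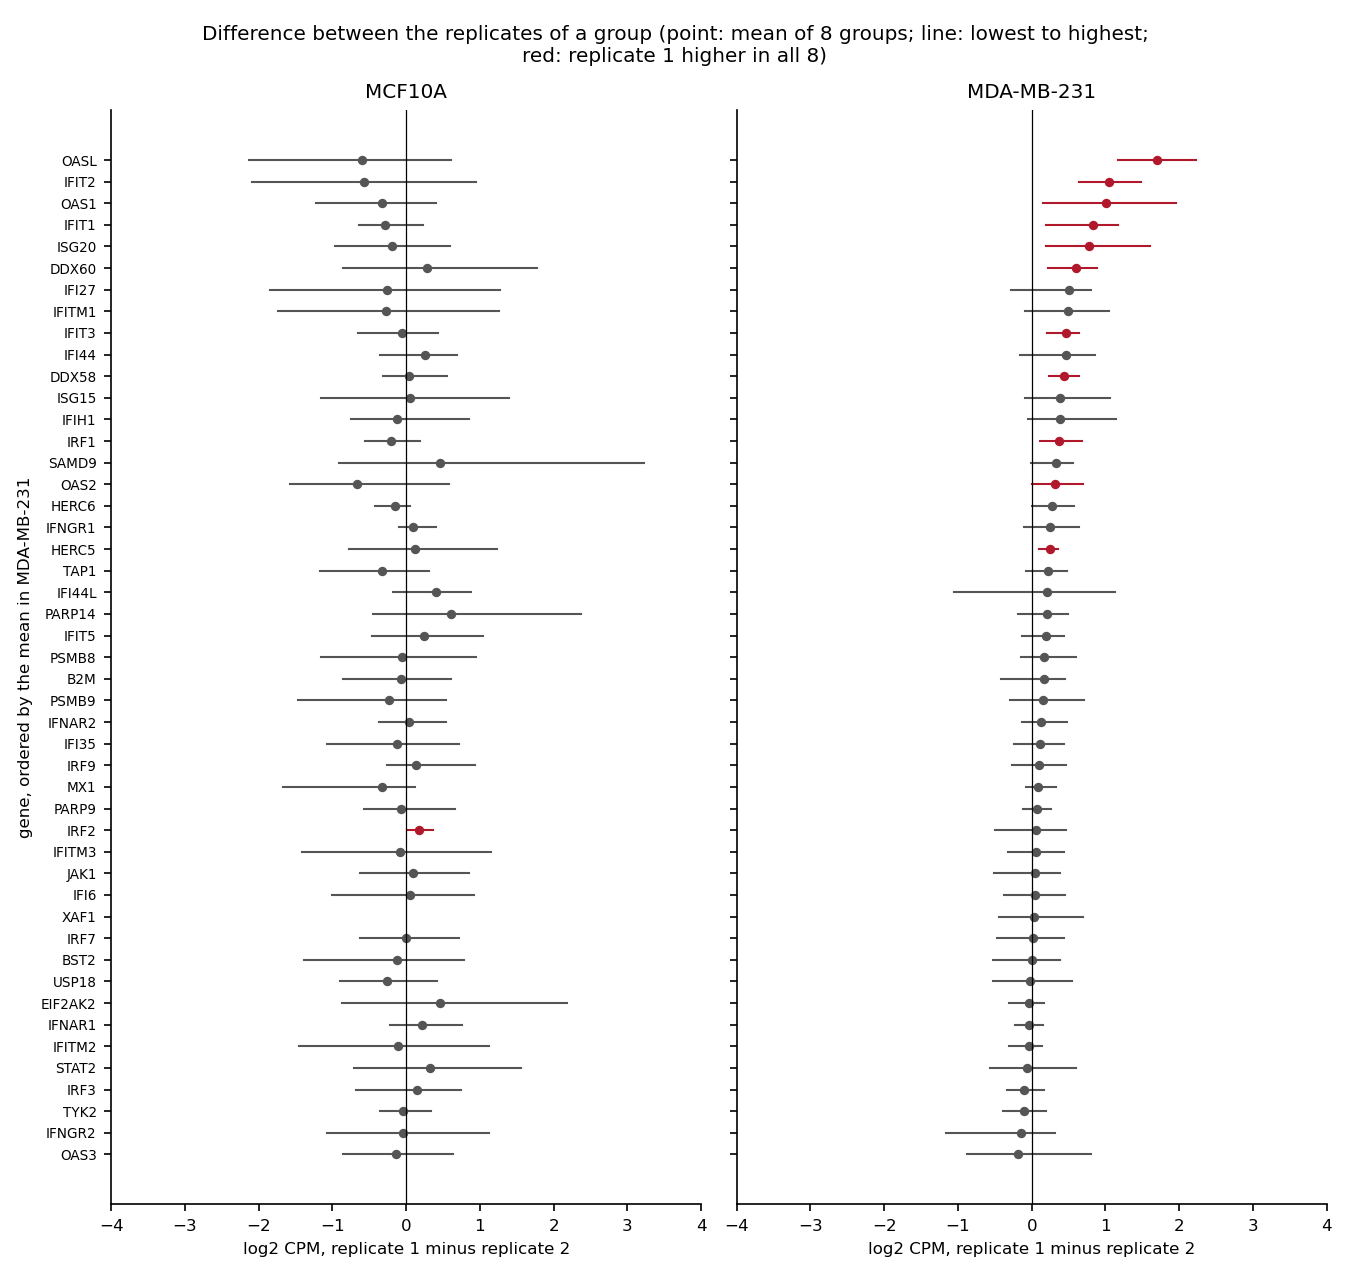
Difference in log2 CPM between replicate 1 and replicate 2 of a group for the 47 genes (rows, ordered by the mean in MDA-MB-231), with a point at the mean of 8 groups, a line from the lowest to the highest and red where replicate 1 was higher in all 8. In MDA-MB-231 11 genes are red, led by OASL (mean 1.70), and in MCF10A 1 gene, IRF2, is red.

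Other genes of the pathway were counted from lists of their own. Of 36 other interferon response genes 30 were tested in MCF10A, where HPP called 4 up (background 7.43%) and 4 down (7.47%) in T and 8 up (10.2%) and 3 down (11.9%) in P. In MDA-MB-231 34 were tested, with 2 up (6.31%) and 2 down (6.91%) in T and 1 up (9.71%) and 6 down (9.73%) in P. TRIM21, a cytosolic antibody receptor, rose in T of both lines (1.84 and 0.85, adjusted p = 0.00462 and 0.0442). TRIM22, a related ubiquitin ligase, fell in T of both, from 6.21 and 4.53 CPM to 2.32 and 2.15 in MCF10A and from 8.14 and 6.31 to 4.69 and 2.53 in MDA-MB-231 (−1.26 and −0.999, adjusted p = 0.0208 and 0.0334). GBP1, a GTPase that interferon γ induces, rose in P of MCF10A from 31.3 and 35.9 CPM to 85.3 and 110 (1.54, adjusted p = 0.00415) and fell in P of MDA-MB-231 from 34.8 and 38.8 to 22.9 and 25.9 (−0.59, adjusted p = 0.0297), and the difference between lines was −2.16 (adjusted p = 0.00155). NLRC5, the transactivator of MHC class I genes, changed by −0.98 in T of MDA-MB-231, from 21.1 and 19.8 CPM to 8.01 and 12.8 (adjusted p = 0.00622).

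Of the pathway regulators, SOCS3, a feedback inhibitor of JAK kinases, fell in HPP in T of both lines. In T of MCF10A it stood at 6.89 and 10.4 CPM in N, 3.12 and 2.70 in H, 6.82 and 8.88 in NPP and 1.64 and 2.55 in HPP, and both hypoxic groups were called (−1.57 in H, adjusted p = 0.0265, and −2.04 in HPP, adjusted p = 0.00156). In T of MDA-MB-231 it stood at 37.5 and 43.9 CPM in N, 30.5 and 32.9 in H, 16.2 and 21.7 in NPP and 22.8 and 21.4 in HPP, and both PP242 groups were called (−1.10 in NPP, adjusted p = 0.0229, and −0.88 in HPP, adjusted p = 0.0111). Of the sensing adaptors, TRAF3, which links sensors to the kinases of IRF3 and IRF7, fell in T of HPP in MCF10A from 21.99 and 30.05 CPM to 5.01 and 4.30 (−2.48, adjusted p = 0.00128) and in MDA-MB-231 from 17.3 and 26.7 to 10.7 and 12.8 (−0.90, adjusted p = 0.0402). The difference between lines was 1.68 (adjusted p = 0.0398). TMEM173, which encodes STING, rose in T from 42.7 and 47.5 CPM to 106.7 and 127 in MCF10A (1.37, adjusted p = 0.00553) and from 22.1 and 18.6 to 39.5 and 35.2 in MDA-MB-231 (0.87, adjusted p = 0.0139). Libraries were not left out for these lists. SOCS3, TRAF3 and TMEM173 were named singly, and the numbers called in their whole lists are not given. Of all genes HPP called 7.43% up and 7.47% down in T of MCF10A, and 6.31% and 6.91% in T of MDA-MB-231.

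The interferon genes that were looked up, with IFNA1 alone for the IFNA family, were at or near 0. IFNB1, IFNG, IFNK, IFNL1, IFNL2 and IFNL3 had 0 counts in 16 of 16 MCF10A libraries, for which 3 counts per library is about the upper 95% limit (counting error only), and IFNB1 had 0 counts in 14 of 16 MDA-MB-231 libraries and at most 2. IFNE, an epithelial type I interferon, held 1 to 31 counts in the libraries of MCF10A. IFNLR1, the specific chain of the type III receptor, reached at most 0.604 CPM in MCF10A and 1.76 in MDA-MB-231, whereas its partner IL10RB stood at 36.0 to 74.3 and 20.1 to 31.5 CPM. In HPP of MDA-MB-231 IFNLR1 changed by −1.22 in T (adjusted p = 0.0220). Interferon protein was not measured.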

How the data were processed

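Total and polysomal mRNA of 32 libraries were analysed from expected counts per gene. The authors made poly(A)-selected TruSeq v2 libraries, mapped the reads to GRCh38 with STAR and GENCODE v24, and deposited expected counts estimated by RSEM as whole numbers, not normalised. Strand was not stated. Each count column was matched to its library by the barcode in the labels.

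In R 4.3.3 each line was fitted on its own over protein-coding genes, as 8 groups of 2 libraries, with edgeR 4.0.16 (filterByExpr with a minimum count of 10, TMM, quasi-likelihood F test), which left 13124 genes for MCF10A and 13510 for MDA-MB-231. A joint fit of 32 libraries tested 14298 genes for line differences. Adjusted p are Benjamini-Hochberg values over all tested genes, called under 0.05, and the SE is the log2 fold change divided by the square root of F. A two-sided permutation test of 2 against 2 libraries cannot go below 0.333 and was not used. Levels per kilobase used transcript lengths of GENCODE v44. Both the 47 genes and the other lists were chosen with earlier results of these data known. Named were IRF9, every called member of the comparisons between treatments and of Te (at most 15 per comparison) and at most 5 called genes of each other list. Of the members called between lines in N only some were named. Single genes beyond this rule were chosen after their values were seen. Alternatives were DESeq2 1.42.0, no filter beyond 1 read, all gene classes, a fold limit of 1 log2 unit in either direction, replicate blocks and each library left out. The edgeR step was also run on simulated counts, with an outcome not reported here. Those libraries were drawn independently, without the shared replicate differences described above, so the run does not vouch for the calls. Intervals and floors cover counting error or the spread between these replicates only. Some genes of the lists are counted but not reported here by name.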

Additional observations from a re-analysis of the deposited data

Results flagged for a closer look

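The response of 2 genes to hypoxia with PP242 differed between the lines by the test of the difference itself. For IRF9 the log2 fold change of HPP against N in MDA-MB-231 minus the MCF10A value came to −1.86 (T) and −2.03 (P). For IRF2 the same difference was 1.55 in T and 2.10 in P. Line cannot be told apart from the separate tables and barcode series in these values.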

How the results depend on the processing

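Of the 40 single-gene calls in comparisons of HPP with N and with H, 40 of 40 stayed called with DESeq2, 36 with all gene classes, 34 with no filter beyond 1 read and 24 with a limit of 1 log2 unit, and no value changed sign. With 1 library left out, 66 of 160 such calls stayed and 94 were lost. All 7 calls of IRF9 stayed with its readthrough gene added, an alternative chosen after seeing the data.

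Counts of called members moved as follows, with the share of all genes called under the same setting in parentheses. With DESeq2, MCF10A had 1 (3.83%) under H and 1 (2.73%) under NPP in T, 2 (4.24%) and 2 (5.07%) in P, 10 (20.9%) under HPP in T and 5 (7.96%) for HPP against H in T. MDA-MB-231 had 1 (4.83%) under H and 2 (3.92%) under NPP in P and 3 (7.18%) for HPP against H in T, and the line difference in T had 4 (5.22%). With no filter beyond 1 read, HPP against H in MCF10A gave 1 (2.34%) in T and 3 (3.99%) in P. In MDA-MB-231 that setting gave 3 (1.68%) under NPP and 10 (11.7%) under HPP in T, 2 (4.27%) under H, 4 (2.96%) under NPP and 15 (15.9%) under HPP in P, and 3 (4.51%) in T and 7 (10.2%) in P for HPP against H. With all gene classes HPP against H in P of MCF10A gave 3 (4.84%). A limit of 1 log2 unit left 1 (3.59%) in T and 0 (5.57%) in P for HPP, and 1 (3.18%) in P for HPP against H, in MDA-MB-231. The cause of these shifts was not tested.

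Titles give T and P of a replicate the same number, and no label pairs replicates across treatments. Differences between replicates correlated at 0.283 to 0.778 between the T groups of MCF10A (6 of 6 over 0.1) and at −0.100 to 0.635 between its P groups (3 of 6). In MDA-MB-231 they correlated at −0.187 to 0.282 in T (4 of 6) and at 0.00232 to 0.347 in P (4 of 6). Over all pairs of groups 11 of 28 in MCF10A and 19 of 28 in MDA-MB-231 were over 0.1, with a range of −0.641 to 0.778 and of −0.187 to 0.348. With a replicate block, MDA-MB-231 gave 2 (1.26%) under NPP and 10 (18.4%) under HPP in T, 3 (4.52%) under H, 4 (3.34%) under NPP and 13 (25.3%) under HPP in P, and 3 (7%) in T and 10 (16.5%) in P for HPP against H. With a replicate block within each fraction, MCF10A gave 1 (3.34%) under H and 12 (26.5%) under HPP in T, 1 (4.05%) under H and 3 (5.07%) under NPP in P, and 6 (8.79%) in T and 8 (14.9%) in P for HPP against H. MDA-MB-231 then gave 2 (1.34%) under NPP and 10 (19.3%) under HPP in T, 3 (4.74%) under H, 3 (3.61%) under NPP and 14 (26.7%) under HPP in P, and 2 (7.12%) in T and 11 (17.7%) in P for HPP against H, and the line difference in T gave 5 (7.41%). All 40 calls stayed with either block. A block for the number that T and P share called no member in Te.

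With each library left out in turn, HPP against N called 3 to 5 members in T (4.26% to 9.54% of all genes) and 4 to 8 in P (7.56% to 16.5%) of MCF10A, and 2 to 4 in T (3.93% to 9.06%) and 1 to 8 in P (5.73% to 11.2%) of MDA-MB-231. HPP against H called 0 in T (0.529% to 1.01%) and 1 to 3 in P (0.984% to 3.29%) of MCF10A, and 0 to 1 in T (0.167% to 5.53%) and 0 to 3 in P (2.57% to 7.22%) of MDA-MB-231. H in P of MDA-MB-231 gave 0 to 1 (0.481% to 1.83%), N between lines gave 23 to 26 in T (28.6% to 32.3%) and 21 to 25 in P (30.5% to 42.9%), and the line difference in HPP gave 2 to 3 in T (1.06% to 2.7%) and 2 in P (1.42% to 3.83%). With 2 libraries per group, a missed call does not show that a gene was unaffected.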
